A study of Homo sapiens with 3 samples.

Results

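The region described here is a 1.5 Mb stretch of the short arm of chromosome 9 in band 9p24 (hg19 chr9:4500000-6000000) that holds JAK2, CD274 and PDCD1LG2. Its members are the HMGA1 peaks with a summit inside those bounds, a rule set by position and not by any measured value. They number 403 of the 385953 peaks called over input DNA (0.104%, the input list) and 391 of the 263033 peaks called over histone H3 (0.149%, the H3 list). The cells were DAMI, an established line of leukemic cells that the labels place under MPN/AML (myeloproliferative neoplasm and acute myeloid leukaemia), grown without a treatment or a genetic change that the labels name. The 3 libraries were an HMGA1 ChIP, a histone H3 ChIP and input DNA, with 1 library each, so no value below has a replicate error and no difference has a test. Intervals are 95% intervals for counting error only, and peaks of one library are not replicates. Both lists rest on the same HMGA1 reads, so the lists are not independent of each other.

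HMGA1 is a small chromatin protein whose AT-hooks grip the minor groove of AT-rich DNA and bend it. JAK2 encodes a tyrosine kinase bound to receptors such as those for erythropoietin and thrombopoietin. When a receptor meets its ligand the kinase phosphorylates STAT proteins, and activated forms of JAK2 drive myeloproliferative neoplasms. CD274 encodes PD-L1 and PDCD1LG2 encodes PD-L2, neighbouring ligands of the inhibitory receptor PD-1 on T cells. In hg19 JAK2 spans 4985245 to 5128183 (143 kb), CD274 5450503 to 5470566 (20.1 kb) and PDCD1LG2 5510570 to 5571254 (60.7 kb), and all 3 are read in the direction of rising coordinates. By RefSeq order (GRCh38.p14, used for names only), the hormone genes INSL4, RLN2 and RLN1 and the plasminogen receptor gene PLGRKT lie between JAK2 and CD274. INSL6, another relaxin-family gene, has a span that overlaps JAK2, so a peak counted inside JAK2 may also lie in INSL6. Exons and introns of the files' build were not used here.

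HMGA1 peaks were found in all 3 genes and in every stretch between them. The input list held 26.9 peaks per 100 kb in the window (95% interval 24.3 to 29.6) against 24 in the rest of chromosome 9 before 20 Mb (23.3 to 24.7), which is 1.12 times as many. The H3 list held 26.1 (23.5 to 28.8) against 21.7 (21.0 to 22.4), 1.2 times as many. The peaks were narrow, with a median width of 337 bp (input list) and 338 bp (H3 list), and covered 11.0% and 10.7% of the window. The surplus over the rest depends on the peaks counted and on what the window is set against. Without the 10 tiles of 100 kb in the rest that held no peak, the ratio was 1.06 (input list) and 1.14 (H3 list). Among peaks of 4-fold or more the ratio was 0.994 over input, below 1, and 1.13 over H3. Over all peaks it was 1.5 times (input list) and 1.73 times (H3 list) against 3 Mb on each side, but the window was sparser, at 0.735 and 0.781 times, than the 9 and 7 tiles of 500 kb elsewhere in the rest whose control was raised to at least 4 times its floor.

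**Figure D1:**
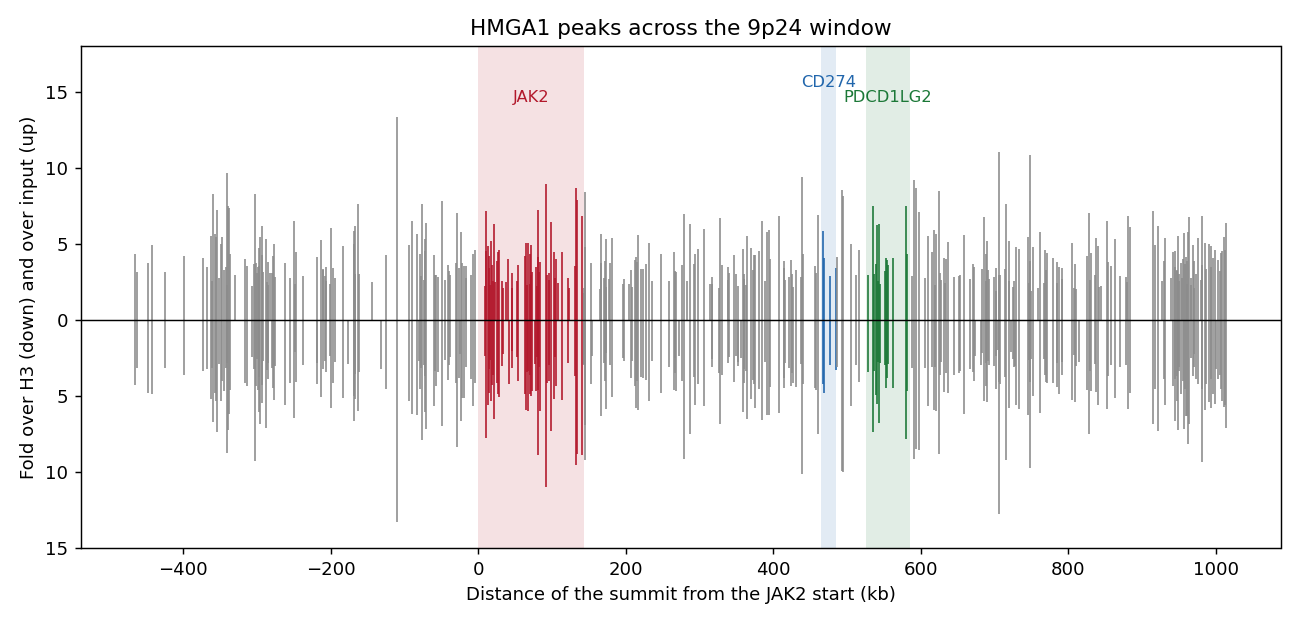
Each vertical line is 1 HMGA1 peak of the 9p24 window, placed by the distance of its summit from the JAK2 start in kb. Its height is the authors' fold over input (up, 403 peaks) or over H3 (down, 391 peaks), with peaks inside JAK2, CD274 and PDCD1LG2 coloured, the others grey and the gene spans shaded. Lines stand on either side at nearly the same places, the tallest is 109.5 kb before the JAK2 start, and no line stands at any of the 3 gene starts.

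None of the 3 gene starts carried an HMGA1 peak. In either list no peak came within 1 kb of the start of JAK2, CD274 or PDCD1LG2, nor within 2 kb. In the rest of chromosome 9 before 20 Mb, 43.1% of 2 kb stretches were overlapped by an input-list peak and 39.6% by an H3-list peak, and in the window itself 48.1% and 46.9%. Of 4 kb stretches, which match 2 kb on each side, 59.6% (input list) and 55.4% (H3 list) were overlapped in the rest and 65.9% and 64.3% in the window. With 3 starts, whether they differ from these shares was not tested. Upstream of JAK2 the nearest summit was 4.31 kb away, in a peak from 4980787 to 4981087 with 83 HMGA1 reads at the summit, 4.62-fold over input and 4.14-fold over H3. The first peak inside the gene came 9.79 kb after the start, which left 13.8 kb without a peak. For CD274 the nearest summit lay 2.48 kb inside the gene and the next one upstream 4.26 kb before the start, 6.38 kb being free of peaks. For PDCD1LG2 the nearest summit lay 3.01 kb inside the gene and the next upstream 9.28 kb away, with 12.02 kb free. The first of these, from 5513478 to 5513702, was low, with 39 HMGA1 reads and folds of 2.97 over input and 3.39 over H3. Such gaps were common: input-list gaps at least as long as that at the JAK2 start took up 19.6% of the bases of the window and 28.7% of the bases of the rest. Within 10 kb of the start, 4 input-list peaks were found for JAK2, 5 for CD274 and 3 for PDCD1LG2. Of 20 kb stretches, 89.2% in the rest and 98.7% in the window were overlapped by an input-list peak, so a peak at that distance is what most positions have.

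Peaks came within 1 kb of the JAK2 and CD274 ends in either list. Of the window's 2 kb stretches, 48.1% (input list) and 46.9% (H3 list) were overlapped by a peak, against 43.1% and 39.6% in the rest. With 3 ends, whether they differ from these shares or from each other was not tested. At the JAK2 end a weak peak had its summit 0.106 kb past the last base, with 39 HMGA1 reads and folds of 2.13 over input and 2.91 over H3. Its input-list interval began just past the gene, at 5128195, and its H3-list interval just inside it, at 5128172. Another weak peak within 1 kb of that end, from 5128825 to 5129033, had 40 reads and folds of 1.76 over input and 2.97 over H3. A peak straddled the CD274 end, from 5470388 to 5470614 in the input list, with 45 reads and folds of 3.42 and 3.31. The PDCD1LG2 end had no peak within 1 kb.

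The DNA just upstream of 2 of the genes is shown because HMGA1 is a binder of AT-rich DNA and no peak was called at either start. RefSeq promoters (GRCh38.p14, plus strand) were found for JAK2 and CD274 and for 2 of 3 members in all. The 250 bases before the first base of the RefSeq gene are printed 5′ to 3′, with runs of 5 or more A or T bases in capitals. They lie at chr9:4984140-4984389 for JAK2 and chr9:5450292-5450541 for CD274, and were not laid over the hg19 peaks.
JAK2: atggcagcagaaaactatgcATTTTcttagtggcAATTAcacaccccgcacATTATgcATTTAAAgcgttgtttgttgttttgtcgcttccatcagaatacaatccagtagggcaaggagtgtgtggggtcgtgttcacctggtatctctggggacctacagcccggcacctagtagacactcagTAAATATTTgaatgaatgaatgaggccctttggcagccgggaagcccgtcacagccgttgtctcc
CD274: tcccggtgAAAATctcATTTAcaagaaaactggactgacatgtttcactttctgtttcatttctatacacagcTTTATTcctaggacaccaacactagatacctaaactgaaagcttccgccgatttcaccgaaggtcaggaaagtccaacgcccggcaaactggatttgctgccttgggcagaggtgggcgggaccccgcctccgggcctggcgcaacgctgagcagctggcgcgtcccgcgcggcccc
The JAK2 stretch was 51.6% A or T, with 5 such runs and a longest run of 9 bases, and the CD274 stretch was 45.2% A or T, with 3 runs and a longest of 6 bases. Over all 35116 promoters in the table the median was 42.0% (quartiles 32.0 and 53.6), and 73.8% held a run of 5 or more, on either strand alike since A and T pair. A longest run of at least 9 bases was present in 26.4% of promoters and one of at least 6 in 58.7%. RefSeq also lists JAK2 starts beyond the first base of its gene. The 250 bases before these end at 4985085, 4985271 and 5041531, and were 24.4%, 31.6% and 41.6% A or T. By number, those ending at 4985085 and 4985271 lie nearer than the printed stretch to 4985245, the hg19 start used for the peaks. Positions were not carried over between the builds. Of the JAK2 stretches listed, the printed one was thus the richest in A and T. Against all promoters the printed stretches are neither the poorest nor the richest, and their letters say nothing of HMGA1 binding there.

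JAK2 had the highest peak density of the 3 genes, though its counting interval overlapped those of CD274 and PDCD1LG2. It held 55 peaks of the input list, which is 38.5 per 100 kb (95% interval 29.0 to 50.1), and 51 of the H3 list, 35.7 per 100 kb (26.6 to 46.9). Peaks covered 18.1% (input list) and 18.9% (H3 list) of the gene, against 10.3% and 9.24% of the rest of chromosome 9 before 20 Mb. Of 128 stretches of the same length laid end to end over that rest, 26 held at least as many input-list peaks as JAK2, with a median of 31.0 and a maximum of 83. The density of JAK2 was therefore above the median of the region and within its range. The H3 list gave 27 such stretches of 128. The 9 and 7 tiles of 500 kb elsewhere with control at least 4 times its floor held 36.6 (input list) and 33.4 (H3 list) peaks per 100 kb. Both values lie inside the JAK2 intervals.

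Within JAK2 the peaks were spread over the gene. Cut into 3 parts of equal length, the gene held 21, 20 and 14 input-list peaks from start to end, and the longest stretch without one measured 8.7 kb, from 5039858 to 5048561. Summits held 30 to 153 HMGA1 reads with a median of 65, over an input control of 13.9 to 21.4 reads with a median of 16.52. The folds over input ran from 1.94 to 8.95 with a median of 3.61. Those over H3 ran from 2.03 to 11.0 with a median of 4.28.

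The strongest JAK2 peak lay 92.2 kb into the gene, from 5076879 to 5077776, and ranked 4 by q-value among the window's peaks in either list. Its summit held 153 HMGA1 reads against a control of 16.2 reads in input and 10.1 reads in H3. The folds were 8.95 and 11.0. Throughout, HMGA1 reads are given unscaled, whereas for the fold over H3 they were first multiplied by 0.787. Control reads are levels as the peak caller scaled them, so those of input and of H3 are not in the same unit. The next, from 5117478 to 5118137, lay 10.5 kb before the end of the gene, with 133 HMGA1 reads against 14.5 in input and 10.1 in H3, 8.66-fold and 9.55-fold. It was followed within the same stretch by peaks from 5118700 to 5120094 (120 reads, 7.88-fold over input) and from 5124891 to 5126166 (114 reads, 6.8-fold). Just past the gene, with a summit 2.54 kb beyond its end, a peak from 5130496 to 5130886 reached 142 reads, 8.4-fold over input and 9.22-fold over H3. The last stretch of JAK2 and the DNA beyond it thus held 4 peaks of over 100 HMGA1 reads, a group that was picked out after its values were seen.

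JAK2 held more peaks of 1 kb or more than any other part of the window. Of the window's 11 input-list peaks of 1 kb or more, 6 lay in the gene, which is 10.9% of its peaks (95% interval 5.1 to 21.8) against 4.55% in the rest of chromosome 9 before 20 Mb. In the H3 list 8 of 15 lay there, 15.7% of the gene's peaks (8.17 to 28.0) against 4.58%. CD274 and PDCD1LG2 had none, out of 4 and 15 peaks, which allows up to 49.0% and 20.4%. The median width in JAK2 was 335 bp in the input list, against 337 bp in the window. In the H3 list it was 373 bp against 338 bp. The 1 kb limit was chosen after the widths were seen, and JAK2 summits also stood on the highest median input control of the window's parts. Their median H3 control, 11.03 reads, was not above the 11.18 reads of the whole window. The share of either control in the widths was not tested.

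**Figure D2:**
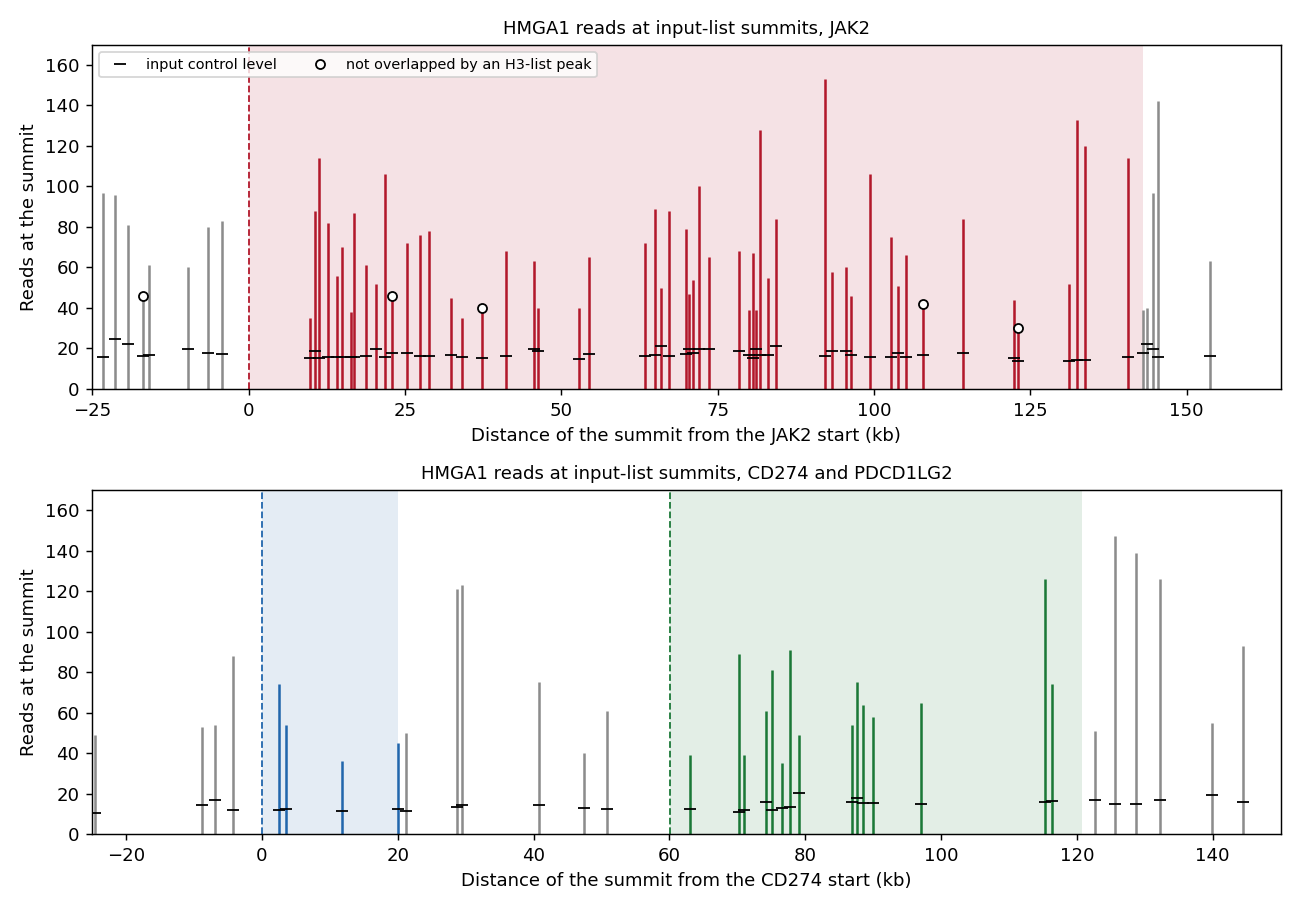
Height of each line: HMGA1 reads recovered at the summit of 1 input-list peak, against the distance of that summit from the JAK2 start (upper panel, kb) or the CD274 start (lower panel, kb). Short dashes mark the input control level at the same summit, open circles the peaks with no H3-list partner, shading the genes and dashed lines their starts; JAK2 summits reach 153 reads, CD274 summits 74 and PDCD1LG2 summits 126.

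CD274 held few peaks, about as many as its length would hold elsewhere. It held 4 peaks in either list, 19.9 per 100 kb with a counting interval of 5.43 to 51.0, so its density could not be told from that of the rest of the window. Of 920 stretches of its length in the rest, 545 held at least 4 input-list peaks, the median was 4 and 97 held none. The median fold over input, 3.75, was close to that of JAK2 (3.61) and of the window (3.74). A pair stood near the start, from 5452804 to 5453191 and from 5453545 to 5454233, with 74 and 54 HMGA1 reads. Another lay in the body of the gene, from 5461953 to 5462436, with 36 reads, and the last was the one at its end with 45 reads. The first had an input control of 11.9 reads and an H3 control of 13.0 reads, and its fold was 5.82 over input but 4.23 over H3. The second had 12.5 and 8.0 reads, with folds of 4.09 and 4.83, so the order of the pair turned with the control. None of the 4 reached 6-fold over either control, whereas 19.7% of the input-list peaks and 26.3% of the H3-list peaks in the rest of chromosome 9 before 20 Mb did, and 0 of 4 allows a share of up to 49.0%.

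Stronger peaks stood on either side of CD274. Upstream, 4.26 kb before its start, a peak from 5445658 to 5446418 had 88 reads and folds of 6.91 over input and 7.47 over H3. Downstream, in the 40 kb between the 2 ligand genes, 6 peaks were called in each list. The highest of these were a pair from 5479017 to 5479519 and from 5479754 to 5480163, with 121 and 123 HMGA1 reads. Their folds were 8.53 and 8.14 over input, and 9.92 and 9.97 over H3. The other 4 peaks between the genes had 40 to 75 reads.

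PDCD1LG2 held 15 peaks in either list, 24.7 per 100 kb (95% interval 13.8 to 40.8), close to the 24 of the rest in the input list. All 15 were found in both lists (79.6% to 100%), an interval that holds the window's 93.1% (input list) and 95.1% (H3 list). Of 3 parts of equal length, the one at the start held 8 of them, the middle one 5 and the one at the end 2. A stretch of 17.9 kb, from 5547698 to 5565553, had no input-list peak and was the longest such gap inside any of the 3 genes. Summits held 35 to 126 HMGA1 reads with a median of 64. The strongest was from 5565554 to 5566055, beyond that gap, with 126 reads against 15.99 in input and 11.8 in H3, 7.48-fold and 7.83-fold. An earlier peak from 5520522 to 5520873, 10.1 kb into the gene, had 89 reads against 11.0 and 8.68, 7.47-fold and 7.34-fold. Folds of at least 6 were seen at 4 of 15 peaks over input (26.7%, 10.9 to 52.0) and at 3 of 15 over H3 (20%, 7.05 to 45.2), intervals that hold the shares of the rest.

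Beyond the end of PDCD1LG2 the first peak, from 5573132 to 5573364, was weak, with 51 HMGA1 reads and folds of 2.9 over input and 3.18 over H3. The next 3 were higher. Summits at 4.94, 8.04 and 11.5 kb past the end held 147, 139 and 126 HMGA1 reads. Their folds were 9.17, 8.66 and 7.09 over input, and 9.13, 8.49 and 8.57 over H3. The nearest of these 3, from 5575698 to 5576381, ranked 5 by q-value among the window's peaks in either list.

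The 3 highest peaks of the window by q-value lay outside the 3 genes, as did most of its peaks. Outside the genes lay 329 of 403 input-list peaks and 321 of 391 H3-list peaks. That DNA made up 1276 of the window's 1500 kb, so a majority there is what its length would give. It held 25.8 (input list) and 25.2 (H3 list) peaks per 100 kb, against 26.9 and 26.1 in the whole window. The peak ranked 4 lay in JAK2. By q-value the first was from 4875533 to 4875984, 109.5 kb before the JAK2 start, with 215 HMGA1 reads against 15.2 in input and 11.8 in H3. It was 13.3-fold over either control, the HMGA1 reads being multiplied by 0.787 for the fold over H3. The second, from 5690529 to 5691179, was 119.7 kb past the end of PDCD1LG2, with 178 reads and folds of 11.0 over input and 12.7 over H3. The third, from 5733562 to 5734336, was 162.8 kb past that end, with 172 reads and folds of 10.8 and 9.74. RefSeq order places SLC1A1, SPATA6L, PLPP6, CDC37L1, AK3 and RCL1 before JAK2 and RIC1, ERMP1, BRD10 and MLANA after PDCD1LG2, but which of these genes a peak falls in was not analysed here. The widest peak of the window, from 5937963 to 5939474 (1512 bp), was of modest height, with 73 reads, 3.76-fold over input and 4.87-fold over H3.

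Between and around the genes the density varied. The 485 kb before JAK2 held 21.6 input-list peaks per 100 kb (17.7 to 26.2), the 322 kb between JAK2 and CD274 26.1 (20.8 to 32.3) and the 429 kb after PDCD1LG2 31.3 (26.2 to 37.0). The longest stretch without an input-list peak measured 30.6 kb, from 5869230 to 5899864, and the next 26.4 kb, from 4560663 to 4587092, against a median gap of 1.77 kb. In tiles of 100 kb the window ranged from 6 to 49 input-list peaks. The tile with 44, from 5000001 to 5100000, lay wholly in JAK2, and the tile with 49, from 5900001 to 6000000, was at the far end of the window. None of the window's 15 tiles was among the 10 with most peaks on chromosome 9 before 20 Mb.

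The control level of the window was the highest of chromosome 9 before 20 Mb in tiles of 500 kb, though not by far. The control level is the background that the peak caller takes at a summit, in reads as the caller scales them. Input levels recur at values such as 16.015 and 16.905, so they are not plain numbers of control reads. Levels in input and in H3 are thus not in the same unit. The control level cannot fall below a genome-wide floor of 2.78 reads for input and 2.19 for H3. No peak of the window was at that floor. At the window's summits the median was 15.8 reads in input and 11.2 in H3, that is 5.68 and 5.11 times the floor. In the rest of chromosome 9 before 20 Mb it was 10.6 and 7.78 reads, 3.83 and 3.56 times the floor. The window's 3 tiles of 500 kb had the 3 highest median controls of the 39 tiles with a peak, in input (15.36, 16.02 and 15.83 reads) and in H3 (11.0, 11.1 and 11.3 reads). The next tile, from 12500001, had 14.6 reads in input and 10.4 in H3. Of the 10 tiles of 100 kb with the highest control, 9 lay in the window by input and 9 by H3, and the other by input, from 12900001, had 15.5 reads. HMGA1 reads at summits were also higher, with a median of 61 in the window against 44 in the rest (input list). Only called peaks were counted, and a call needs more HMGA1 reads where the control is higher. These medians therefore cannot show whether HMGA1 reads follow the control.

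**Figure D3:**
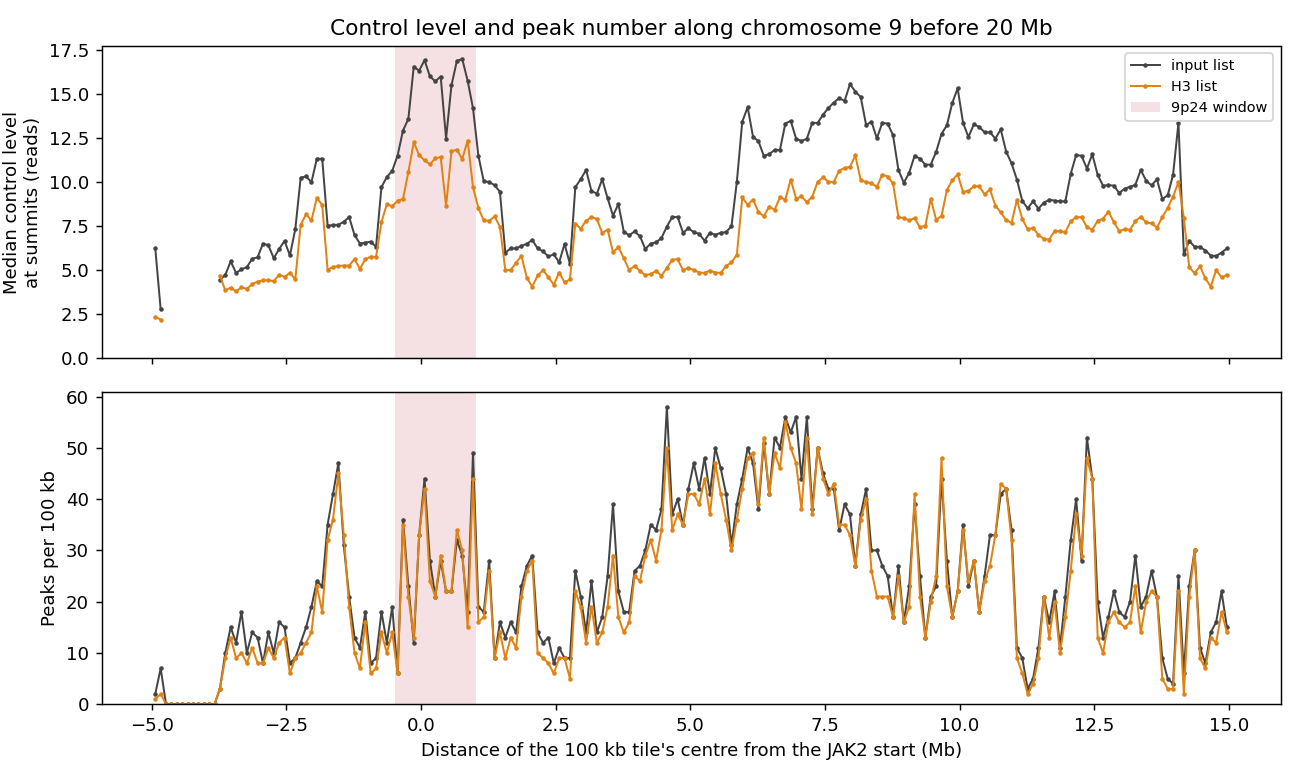
Upper panel: median control level in reads at the summits of each 100 kb tile of chromosome 9 before 20 Mb, for the input list (black) and the H3 list (orange). Lower panel: peaks per 100 kb tile. The horizontal axis is the distance of the tile's centre from the JAK2 start in Mb and the shaded band is the 9p24 window, where the control reaches its highest values (16.97 reads in input and 12.3 in H3) while the peak number does not; breaks in the upper lines are tiles without peaks.

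The raised level had edges and a dip that both controls shared. Going towards JAK2, the input control was 6.32 reads in the tile from 4100001, 9.7 in the tile from 4200001, 13.6 in the tile from 4700001 and 16.54 in the tile from 4800001. On the far side it fell from 14.2 reads in the tile from 5900001 to 11.5 in the tile from 6000001, and from 9.44 to 5.99 between the tiles from 6400001 and 6500001. The tile that holds CD274, from 5400001 to 5500000, had 12.5 reads in input between neighbours with 15.97 and 15.5, and 8.62 in H3 between 11.4 and 11.7. Inside JAK2 the median was 16.52 reads in input, inside CD274 12.2 and inside PDCD1LG2 15.4. What sets these levels was not tested.

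Folds in the window were lower than in the rest over all peaks, and the direction of the medians turned at peaks with a like control. The median fold over input was 3.74 in the window (95% interval 3.54 to 3.95) and 4.02 in the rest (3.94 to 4.08), and over H3 it was 4.19 (4.02 to 4.37) and 4.47 (4.39 to 4.56). Folds of at least 6 were reached by 56 of 403 input-list peaks (13.9%, 10.9 to 17.6), below the 19.7% of the rest, and by 70 of 391 H3-list peaks (17.9%, 14.4 to 22.0), below 26.3%. The higher control of the window stands beside these lower folds, and its part in them was not tested over all peaks. The medians changed order when both sides were limited to summits with an input control between 14.2 and 17.1 reads, the quartiles of the window. There the median fold was 3.88 in the window (204 peaks, 3.64 to 4.3) and 3.52 in the rest (476 peaks, 3.41 to 3.7), and 17.6% (13.0 to 23.5) against 11.3% (8.8 to 14.5) reached 6-fold. Over H3, between 10.1 and 12 control reads, the medians were 4.27 and 3.99, with intervals of 4.02 to 4.6 and 3.82 to 4.25, and 21.0% (15.9 to 27.3) against 16.1% (13.0 to 19.8) reached 6-fold. Both pairs of H3 intervals overlap. This limit was chosen after the data were seen. It keeps the middle of the window's controls. In the rest it keeps only summits above the upper quartile of the control, 12.8 reads in input and 9.35 in H3. The control also divides the fold, so the order of the medians here can be set in part by that choice.

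The 2 controls called nearly the same sites in the window. Of the input-list peaks 375 of 403 overlapped an H3-list peak (93.1%, 90.1 to 95.1), against 87.2% in the rest of chromosome 9 before 20 Mb. In the other direction 372 of 391 did (95.1%, 92.5 to 96.9), against 96.9% in the rest. At summits with a like control the first difference shrank to 94.1% against 92.6%, while the second grew to 93.3% (88.9 to 96.1) against 99.6% (98.4 to 99.9). The 28 peaks of the input list alone were low, with 27 to 53 HMGA1 reads and folds of 2.03 to 3.5. Of these 4 lay in JAK2, with 30 to 46 reads, and none in CD274 or PDCD1LG2. The 19 peaks of the H3 list alone had 27 to 56 reads, and 2 of them lay in JAK2.

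The fold over H3 was above the fold over input at most sites of JAK2, and also in other parts of the window. At 199 sites of the window both lists gave an identical summit position. Measured in units of its own floor, H3 was 0.913 times input at the median of these sites (quartiles 0.826 and 1.009) and 0.921 times in the rest (0.802 and 1.04). At the 27 such sites in JAK2 it was 0.873 times (0.83 and 0.945). The fold over H3 was the higher one at 23 of these 27 (85.2%, 67.5 to 94.1), an interval that holds the 69.8% of the whole window (139 of 199) but not the 63.0% of the rest. It was the higher one at 35 of 59 before JAK2 (59.3%, 46.6 to 70.9) and 6 of 8 in PDCD1LG2. After PDCD1LG2 it was so at 41 of 62 (66.1%, 53.7 to 76.7), and in CD274 at 0 of 1. Between JAK2 and CD274 it was so at 32 of 40 (80.0%, 65.2 to 89.5), and between the ligand genes at 2 of 2. The 2 folds also differ by construction, since the HMGA1 reads were multiplied by 0.787 in the H3 list, so the shares are compared between regions only.

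**Figure D4:**
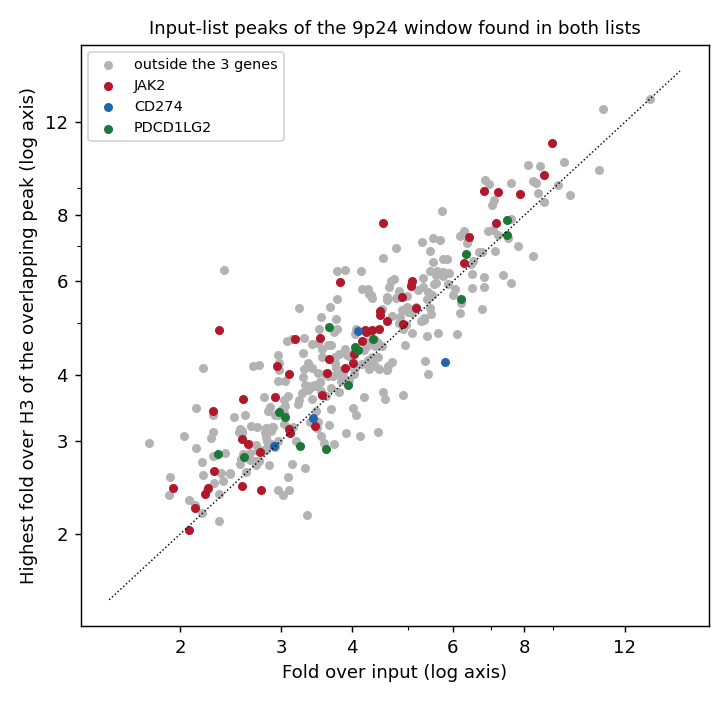
Each point is 1 of the 375 input-list peaks of the 9p24 window that overlap an H3-list peak, with its fold over input on the horizontal axis and the highest fold over H3 among the H3-list peaks it overlaps on the vertical axis, both on log scales. The dotted line marks equal folds; JAK2 peaks (red) lie mostly above it, and 2 of the 4 CD274 peaks lie below it (5.82 over input and 4.23 over H3, 3.42 and 3.31).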

How the data were processed

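The authors deposited 2 narrowPeak lists of HMGA1 ChIP-seq peaks, called with MACS2 on hg19 per the submitters' processing notes. Which aligner, MACS2 version or filtering was used is not stated in the sources at hand. The deposited lists give, per peak, a fold (the ratio of HMGA1 to its control where the peak is highest), the −log10 of both a p-value and a q-value, and a score that is 10 times the −log10 q-value without its decimals. Peak names use a different prefix for the ChIP library; it was read as HMGA1 because the lists are named so.

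HMGA1 reads and control levels at summits were recovered from fold and p-value, reading the fold as (reads + 1) / (control + 1) and the p-value as a Poisson tail. All 385953 input-list and 263033 H3-list peaks gave whole reads within 0.001 of the printed −log10 p-value, the second after HMGA1 reads were multiplied by 0.787. The recovery was also run on data simulated from the same formulas, which cannot show whether the authors' values follow them. The lowest call held 8 HMGA1 reads (input list) or 11 (H3 list), and total read numbers are unknown.

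Gene bounds were taken on hg19 as fixed for the region, and summits as start plus offset. A peak is in both lists where intervals overlap by at least 1 bp. Shares have Wilson intervals, peak numbers exact Poisson intervals and medians exact order-statistic intervals, each at 95%. Peaks named are the 5 highest by q-value in each list, the 2 of highest fold in each gene, the nearest to each start and the widest; others named were chosen after their values were seen. The region, its genes and the lists were chosen with earlier results of these data known. The JAK-STAT genes outside the region and the genes around it were not analysed here, since no hg19 annotation was used. Other settings tried were a stricter q-value or fold, other definitions of overlap and of a gene's peaks, wider windows at starts, and other stretches to compare with. Tables were computed in Python 3.11.15 with pandas 2.3.3 and numpy 2.4.6, intervals with scipy 1.17.1, and figures drawn with matplotlib 3.10.9.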

Additional observations from a re-analysis of the deposited data

How the results depend on the processing

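There was 1 library per antibody, so no replicate could be left out. No paired analysis was possible because each antibody has 1 library and no result comes from a test. Of 80 recomputed values of 24 results, 54 stayed within their counting interval or within 1.5 times of a count. With a fold of at least 4 the window held 181 input-list and 221 H3-list peaks, JAK2 24 and 31, CD274 2 and 2, and PDCD1LG2 7 and 8. The density over the rest was then 0.994 in the input list, below 1. The share that overlapped a peak of the other list, where that peak also had to reach 4-fold, was 95.6% (input) and 77.8% (H3). The latter was 5.3 percentage points below the rest (-5.3). Against 3 Mb on each side the density ratios were 1.5 (input) and 1.73 (H3), and the input-list share in both lists was 11.6 points above. Against tiles with control at least 4 times the floor the density ratios were 0.735 and 0.781, and against 100 kb tiles with a peak 1.06 and 1.14. At like control the median fold was 1.1 (input) and 1.07 (H3) times that of the rest, against 0.93 and 0.937 over all peaks. The share at 6-fold was then 1.56 and 1.3 times that of the rest, against 0.705 and 0.68, and the share in both lists differed by 1.47 (input) and -6.23 (H3) points. With 50% of both peaks shared, the H3-list difference was 0.523 points instead of -1.8. Within 10 kb, 3 of 3 starts had a peak in either list, as had 89.2% (input) and 86.9% (H3) of 20 kb stretches of the rest. For each of these shifts the cause was not tested. Comparisons with like control, raised tiles and tiles with a peak were chosen after the data were seen. Sites below the calling limits were not detectable at this depth.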
